A study of Homo sapiens with 6 samples.

Results

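RCAN1 (regulator of calcineurin 1, ENSG00000159200) was followed as 1 gene of the 1630 that the deposited table lists, by the row that carries its name. It was chosen because its values differ widely between the groups, so its own levels and difference are given as a description with no test. The libraries came from total RNA of U87MG, an established human glioblastoma cell line, in 2 groups. The 3 shCREPT libraries are labelled as a knockdown of CREPT, the product of RPRD1B, by a short hairpin RNA, and the 3 shControl libraries carried a control hairpin. No other treatment is labelled. The labels call the libraries of a group replicates, without saying whether they came from separate cultures or whether all shCREPT libraries carried the same hairpin sequence.

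RCAN1 protein binds calcineurin, the calcium- and calmodulin-dependent phosphatase, and inhibits it. Calcineurin removes phosphates from the NFAT transcription factors, which then enter the nucleus. In human cells NFAT in turn drives a short form of RCAN1 from an internal promoter, which makes RCAN1 a feedback inhibitor and a common readout of calcineurin signalling. VEGF is a known inducer of that form in endothelial cells. RCAN1 lies on chromosome 21, in the region studied in Down syndrome.

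RCAN1 spans chr21:34513142-34615142 on the minus strand of GRCh38 in GENCODE release 29, where it has 14 transcripts with 13 different starts, 10 of them annotated as protein-coding. No other annotated gene overlaps it on either strand. The long form is transcribed from a start at 34615142, and the NFAT-responsive short form from one 88179 bases further along the gene, at 34526963. Each form has 4 exons, and they share the last 3. The table holds 1 value per library for the whole gene, so the forms cannot be told apart in it.

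**Figure D1:**
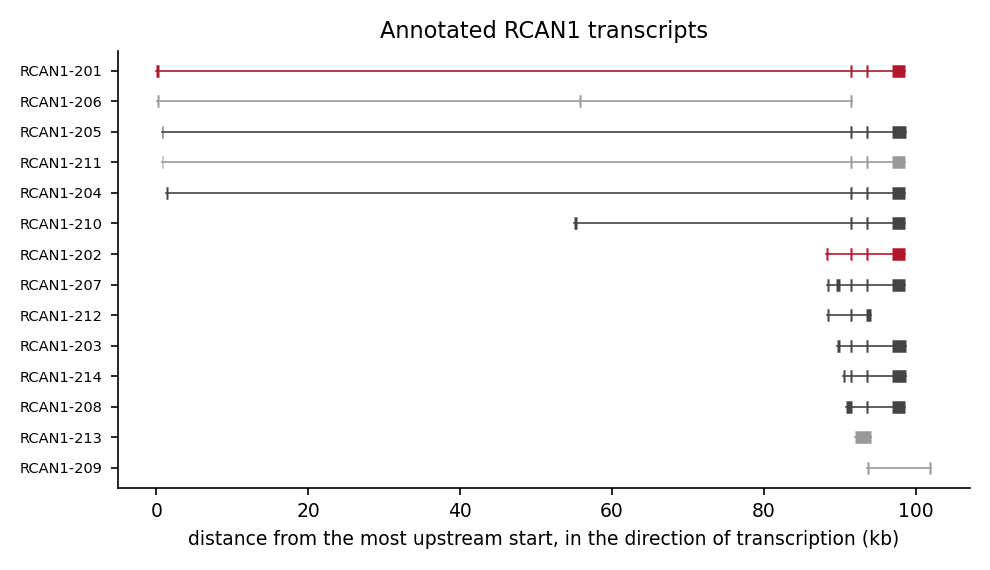
Transcripts of RCAN1 in GENCODE release 29, drawn by distance in kb from the most upstream start. Boxes are exons (short ones widened so that they can be seen), lines are introns, the long and the short form are red, other protein-coding transcripts dark grey and the rest light grey; these 2 differ in their first exon and share the other 3.

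The bases just before each of these starts are shown because they precede the starts of the long form and of the NFAT-responsive short form; the single RCAN1 value adds up these and the other annotated starts. Both are the part of a RefSeq promoter window (GRCh38.p14, minus strand) that lies before the GENCODE start. Capitals mark matches, on either strand, to GGAAA, the core that NFAT factors bind, to TGACG, the half-site of cAMP response element binding proteins, and to TGACTCA, the AP-1 site.
Long form, chr21:34615143-34615363: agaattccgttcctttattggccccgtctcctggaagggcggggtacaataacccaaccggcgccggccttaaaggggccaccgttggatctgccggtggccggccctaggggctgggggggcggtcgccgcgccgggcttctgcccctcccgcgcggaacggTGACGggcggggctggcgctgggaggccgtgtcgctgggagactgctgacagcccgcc
Short form, chr21:34526964-34527072: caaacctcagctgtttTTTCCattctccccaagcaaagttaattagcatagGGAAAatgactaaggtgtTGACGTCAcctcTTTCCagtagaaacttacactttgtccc

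The 221 bases before the long form were GC-rich (71.5%) and held 0 matches to GGAAA, 1 to TGACG and 0 to TGACTCA. The 109 bases before the short form had 41.3% GC and held 3 matches to GGAAA, 2 to TGACG that overlap on opposite strands, and 0 to TGACTCA. Among 35116 promoters cut to the same 109-base window, 31.7% held at least 1 match to GGAAA and 0.92% held 3 or more, while 7.73% held at least 1 match to TGACG and 0.729% held 2 or more. Cut to the 221-base window, 51.4% held GGAAA, 18.5% TGACG and 3.78% TGACTCA, and 1.44% of the 109-base windows held TGACTCA. These letters describe the sequence, and binding was not measured.

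RCAN1 had normalized expression values of 55.8, 63.49 and 61.27 in the shCREPT libraries, against 546.16, 606.6 and 611.49 in the shControl libraries. The groups were far from overlapping, since the lowest shControl library stood 8.60 times above the highest shCREPT library. The means were 60.2 ± 3.96 in shCREPT and 588 ± 36.4 in shControl (SD, n = 3 each), a level 9.77-fold lower in shCREPT, or 89.8% below the shControl mean. On the log2(value + 1) scale the difference was −3.27 ± 0.08 (SE from the spread of RCAN1 alone). The authors' deposited table gives RCAN1 a log2 fold change of −3.24. Replicate 1 was the lowest in both groups. The coefficient of variation of RCAN1 was 6.58% in shCREPT and 6.19% in shControl. Over the 61 listed genes with a shControl mean of at least 100 the median was 4.66% in shCREPT and 5.34% in shControl, and 23 of them in shCREPT and 25 in shControl varied more than RCAN1. In bulk RNA, fewer cells that make a transcript and less transcript per cell cannot be told apart.

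**Figure D2:**
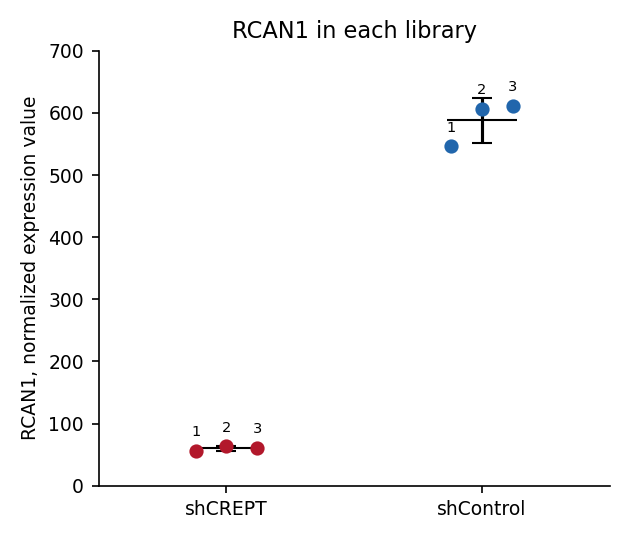
RCAN1 in each library as the authors' normalized expression value (linear axis from 0), with replicate numbers over the points. Bars are the mean and SD of 3 libraries; shCREPT libraries sit between 55.8 and 63.49 and shControl libraries between 546.16 and 611.49.

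Among the 1630 listed genes RCAN1 ranked 116th, 95th and 101st by level in the shCREPT libraries, against 7th, 5th and 5th in the shControl libraries. It made up 0.169, 0.193 and 0.192% of the listed sum in shCREPT libraries, against 1.68, 1.87 and 1.83% in shControl libraries. The genes beside it in shControl were the integrin subunit ITGB4 above it, at 568.18 to 712.86, and the chemokine CXCL10 (513.79 to 599.86), the growth factor VEGFA (548.7 to 572.37) and the polyamine enzyme SAT1 (536.92 to 571.16) below it. All 4 overlapped with RCAN1 across shControl libraries, so their order at that level is not settled. In shCREPT the same 4 stood between 220.14 and 349.7 in every library, each above every RCAN1 value. The next above ITGB4, COL1A2 and HSP90B1, did not overlap with RCAN1 in either group. The files and labels do not say whether the deposited values are scaled by gene length, so an order of levels between genes holds only if they are. Over 163 genes with both a 0 and a value above 0, the smallest value above 0 was lower in genes with longer exons (Spearman rho −0.445 across genes, which are not independent), as it would be in values scaled by length. Dividing the values by the length of all annotated exons, which would scale such values a second time, put RCAN1 182nd in shCREPT and 25th in shControl of 1549 genes.

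By change, the rank of RCAN1 depended on how low genes were treated. In the order of the authors' log2 fold change, from the most negative, it was 124th of 1630, between EYA1 at −3.25 and SELENOP at −3.24, both of which had group means under 2. Among the 419 genes with a shControl mean of at least 10 it was 10th, and among the 61 with a mean of at least 100 it was the third, after the proteoglycan BGN (−6.29) and the ribosomal pseudogene RPS28P7 (−5.21) and just before the astrocyte filament GFAP (−3.16), all from the authors' deposited table. Other neighbours in that order were ARHGEF35 above it and ENSG00000278952 and NPR3 below it, with log2 fold changes of −3.27, −3.23 and −3.20 in the authors' deposited table. On the log2(value + 1) scale RCAN1 was the fifth of 1184 genes, and by the difference of means, −527.9, the third, after COL1A2 (−625.63) and HSP90B1 (−625.08). RPS28P7 was listed at 0 in shCREPT replicates 1 and 2 and at 24.44 in the third, and a pseudogene can share reads with its parent gene.

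**Figure D3:**
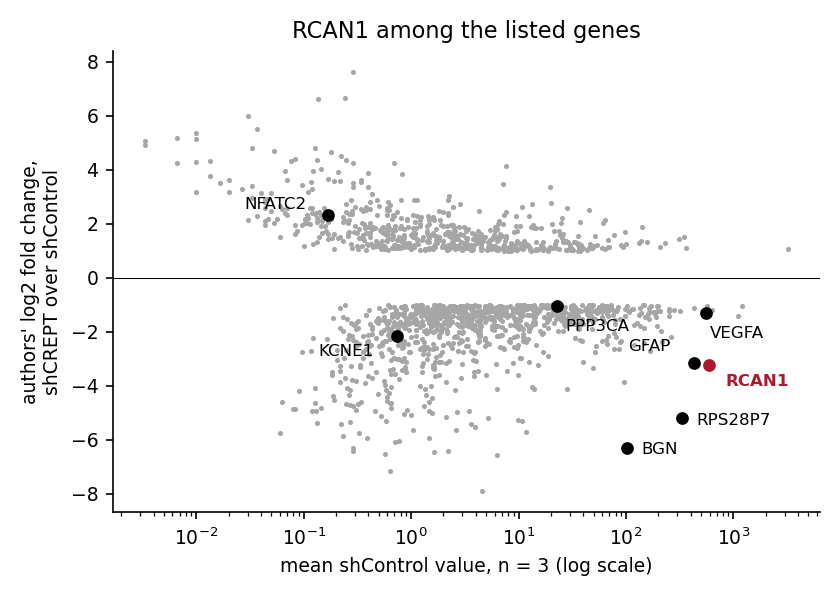
Each point is 1 of the 1611 listed genes with a shControl mean above 0 (19 with a mean of 0 are not drawn), placed by its shControl mean (log axis) and by the log2 fold change, shCREPT over shControl, in the authors' deposited table. RCAN1 (red) lies at 588 and −3.24, close to GFAP at 434 and −3.16; the empty band around 0 reflects that only genes past the authors' threshold are listed.

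The rest of the calcineurin pathway was read from lists of its parts. Every listed gene had been selected by the authors for a difference between these groups. With limma on log2(value + 1), 97.9% of the 1184 tested genes met the threshold on the adjusted p (0.05), of which 40.6% of tested genes stood higher and 57.3% lower in shCREPT, and the groups did not overlap in 96.8% of them. A call for a pathway gene is therefore near the background, and the values and directions are what the table adds. Of the 161 genes in the 9 pathway lists, 22 (13.7%) have a row and 139 have none. Of the 22, 19 passed the filter on low values (1 or more in at least 3 libraries), and limma called each of these, 10 higher and 9 lower. NFATC2, VCAM1, PTGS2, PLCG2 and MEF2B passed only with the libraries of the group where they are high. The filter thus favoured a difference in them, and their calls support nothing. The other 14 were called 7 higher and 7 lower. The median log2 difference was −0.76 over all tested genes. Over the 19 it was 0.64, the value of MEF2B, the smallest of the 10 rises. It therefore gives the pathway no direction. Rescaling by median of ratios raised the median of all tested genes by 0.63 on the log2 scale, to −0.13, and turned the split of calls over the table from 41.5% higher to 56.6% higher; under it 16 of the 19 were called, 10 higher and 6 lower, and RCAN1 stood at −2.40. The same rescaling makes each rise named here larger, to between 1.68 and 2.67 on the log2 scale for the 7, and each fall smaller. Its factors were 0.751 to 0.754 in shCREPT libraries and 1.38 to 1.39 in shControl libraries. They were taken from listed genes alone, all selected as changed, while the method assumes that most genes are unchanged. The rescaling therefore cannot decide which scale is right.

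Of the 5 calcineurin subunits, PPP3CA, the alpha catalytic subunit, has a row, and PPP3CB, PPP3CC, PPP3R1 and PPP3R2 have none. PPP3CA had 10.85, 11.26 and 10.47 in shCREPT libraries, against 21.66, 23.8 and 23.04 in shControl libraries. It fell, with values 2.10-fold lower in shCREPT and a log2 difference of −1.01 ± 0.08 (limma SE, limma adjusted p = 3.34e-05). Under median-of-ratios rescaling its log2 difference was −0.18 and the call was lost (limma adjusted p = 0.0797). The catalytic subunit and its inhibitor were thus both lower in shCREPT on the deposited scale, RCAN1 by a log2 difference of −3.27 and PPP3CA by −1.01. The other members of the RCAN family, RCAN2 and RCAN3, have no row. Of the 16 other regulators and anchors the single row is AKAP1, which tethers signalling enzymes to mitochondria. It rose 2.34-fold, with 45.02, 49.35 and 44.35 in shCREPT libraries, against 17.67, 16.91 and 24.77 in shControl libraries (limma adjusted p = 0.000272).

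Of the 5 NFAT factors, NFATC2 has a row. NFATC2 had 1.43, 1.02 and 1.36 in shCREPT libraries, against 0.18, 0.21 and 0.11 in shControl libraries, so its level stayed low in both groups. It reached the filter through the shCREPT libraries alone, with a log2 difference of 0.96 ± 0.10 (limma SE). Of 12 kinases that act on NFAT or RCAN1, only MAP3K3 has a row, and neither DYRK1A, the chromosome 21 kinase that phosphorylates NFAT, nor the GSK3 kinases do. MAP3K3 had 12.29, 14.34 and 12.88 in shCREPT libraries, against 7.52, 5.5 and 5.35 in shControl libraries, and rose 2.15-fold (limma adjusted p = 0.000388).

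Of 28 genes known as NFAT targets in T cells, endothelium or muscle, 6 have a row and 5 were tested. MYC, F3 and CXCL8 rose, where 40.6% of all tested genes were called higher and 57.3% lower. VCAM1 and PTGS2 were called lower, but they needed the shControl libraries to pass the filter, so their calls support nothing. MYC, a growth-promoting transcription factor, had 60.54, 60.45 and 57.51 in shCREPT libraries, against 16.23, 15.17 and 16.72 in shControl libraries. F3, which encodes tissue factor, had 10.81, 15.06 and 11.69 in shCREPT libraries, against 3.64, 3.98 and 4.92 in shControl libraries, and the chemokine CXCL8 had 9.84 to 11.44 in shCREPT libraries against 4.67 to 5.39 in shControl libraries. MYC thus stood 3.71-fold and CXCL8 2.07-fold higher in shCREPT, with F3 between them, opposite to RCAN1. VCAM1, an adhesion molecule, had 0.24, 0.17 and 0.35 in shCREPT libraries, against 1.99, 1.34 and 1.43 in shControl libraries. PTGS2, the inducible cyclooxygenase, had 1.19, 1.27 and 0.93 in shCREPT libraries, against 2.24, 2.16 and 2.55 in shControl libraries. MYC, F3 and CXCL8 had limma adjusted p of 6.25e-06, 0.000134 and 9.09e-05, and PTGS2 lost its call under median-of-ratios rescaling (log2 difference −0.10, limma adjusted p = 0.394). CSF2, a myeloid growth factor too low to be tested, had 0.97, 2.53 and 1.81 in shCREPT libraries and was listed at 0, 0 and 0.11 in shControl libraries. Genes of this list without a row include IL2, EGR3 and NR4A1.

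Of the 52 genes for calcium channels, stores, pumps, phospholipases, calmodulin and its kinases, 45 have no row and 7 have one. Of the 5 tested, ITPR1, ITPR2, TRPC4 and CACNA1C fell and PLCG2 was called higher. Of all tested genes 57.3% were called lower and 40.6% higher. PLCG2 needed the shCREPT libraries to pass the filter, so its call supports nothing. Under median-of-ratios rescaling the log2 differences of ITPR1, ITPR2, TRPC4 and CACNA1C shrank to −0.32, −0.30, −0.32 and −0.45, against −1.16, −0.99, −1.11 and −1.11 on the deposited scale. ITPR1, an inositol trisphosphate receptor that releases calcium from the endoplasmic reticulum, had 14.56, 14.07 and 12.84 in shCREPT libraries, against 31.8, 34.26 and 30.24 in shControl libraries (2.32-fold lower in shCREPT; limma adjusted p = 3.15e-05). Its paralog ITPR2 had 2.1 to 2.68 in shCREPT libraries against 5.59 to 6.1 in shControl libraries. The cation channel TRPC4 had 5.49 to 5.94 in shCREPT libraries against 12.23 to 15.68 in shControl libraries. CACNA1C, the pore of an L-type voltage-gated calcium channel, had 1.49 to 2.32 in shCREPT libraries against 4.69 to 5.76 in shControl libraries. Groups did not overlap in ITPR1, ITPR2, TRPC4 or CACNA1C, nor did they in 96.8% of all tested genes. PLCG2, a phospholipase that makes inositol trisphosphate, had 6.17, 7.68 and 9.67 in shCREPT libraries, against 0.91, 0.97 and 1.53 in shControl libraries, a level 6.90-fold higher in shCREPT. The untested RYR2, a ryanodine receptor, had 0.2 to 0.49 in shCREPT libraries against 0.38 to 0.65 in shControl libraries, so its groups overlapped. The untested calcium channel CACNA1H had 0.67 to 0.91 in shCREPT libraries against 0.12 to 0.23 in shControl libraries.

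Among 18 other substrates of calcineurin, GAP43 and MEF2B have a row and were called higher, where 40.6% of all tested genes were called higher. GAP43, a growth cone protein, had 11.28 to 12.28 in shCREPT libraries against 3.05 to 4.45 in shControl libraries (limma adjusted p = 5.59e-05). The transcription factor MEF2B had 1.43 to 2.05 in shCREPT libraries against 0.5 to 1.07 in shControl libraries. It needed the shCREPT libraries to pass the filter, so its call supports nothing. Of the 10 VEGF ligands and receptors, VEGFA and its receptor KDR have a row and fell, where 57.3% of all tested genes were called lower. VEGFA had 243.96, 237.29 and 243.64 in shCREPT libraries, against 548.7, 554.46 and 572.37 in shControl libraries (2.31-fold lower in shCREPT; limma adjusted p = 1.37e-05). Its log2 difference was −1.21, and −0.33 under median-of-ratios rescaling. KDR had 5.83, 4.92 and 5.05 in shCREPT libraries, against 10.53, 11.32 and 11.52 in shControl libraries, and lost its call under median-of-ratios rescaling (log2 difference −0.18, limma adjusted p = 0.124). RCAN1 is also known as a gene induced by oxidative stress. Of 15 genes of that response the single row is OSGIN1, which rose, with 8.99 to 9.74 in shCREPT libraries against 2.92 to 4.97 in shControl libraries (limma adjusted p = 0.000537).

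**Figure D4:**
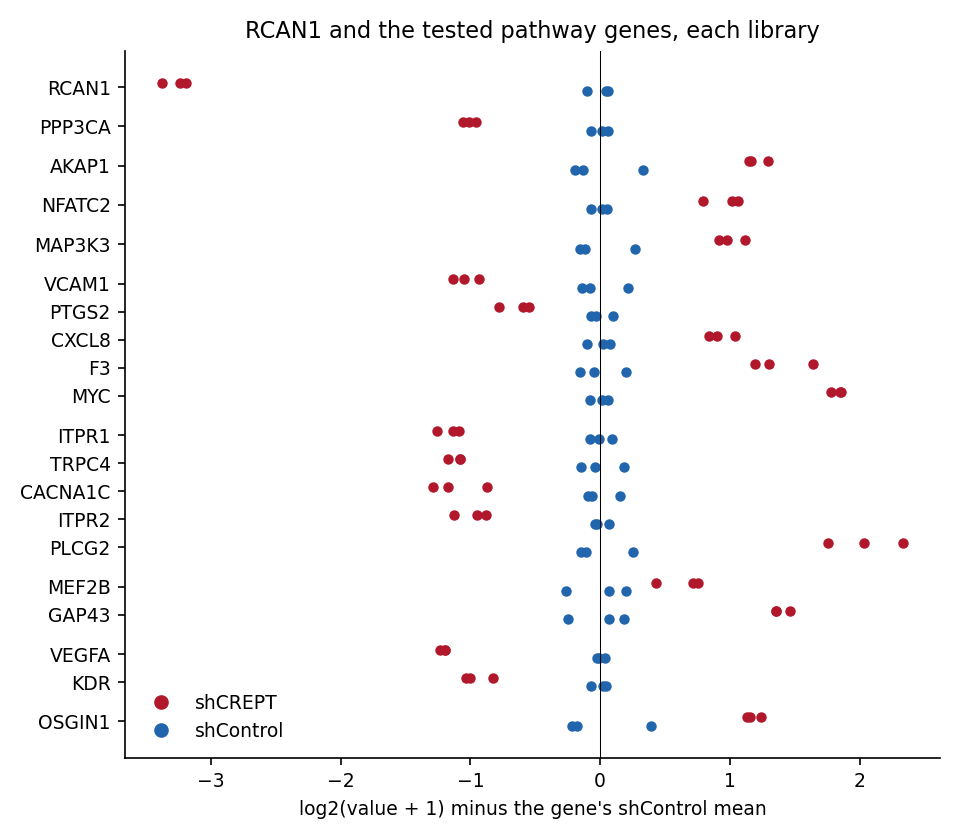
Each row is RCAN1 or 1 of the 19 tested pathway genes; points are single libraries, as log2(value + 1) minus the gene's shControl mean, red for shCREPT and blue for shControl. RCAN1 lies near −3.27, 9 genes lie between −1.21 and −0.64, and 10 lie between 0.64 and 2.04.

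The genes nearest to RCAN1 were sought over the 6 libraries among 1183 tested genes. These libraries form 2 groups and every gene was selected for the difference between them, so likeness mostly restates that difference: 197 genes had a Pearson's r above 0.99 with RCAN1 and the median absolute r was 0.97. The 8 with the highest r (0.9992 to 0.9997) were COL14A1, HAS2, PI15, SUSD2, SMIM10L2A, BGN, HSP90B1 and LOX. COL14A1, a collagen, had 4.47, 4.98 and 4.72 in shCREPT libraries, against 39.01, 41.17 and 39.74 in shControl libraries.

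By Euclidean distance on the log2(value + 1) scale, which counts level as well as pattern, the nearest gene was GFAP, at 1.04. GFAP had 43.12, 43.52 and 49.81 in shCREPT libraries, against 421.04, 447.81 and 432.08 in shControl libraries. Its level was 9.53-fold lower in shCREPT, close to the 9.77-fold of RCAN1, but RCAN1 was above it in each of the 6 libraries. NEFL, a neuronal filament, followed at 2.02, with 56.37 to 58.28 in shCREPT libraries against 250.99 to 276.02 in shControl libraries. RCAN1 and NEFL overlapped in shCREPT, and in shControl RCAN1 was the higher. DDIT4, RTL8C, IGFBP7, SEMA3C, CFB and MT1F completed the 8, at distances of 2.39 to 2.74. DDIT4, a stress-induced inhibitor of mTOR signalling, had 88.94 to 100.27 in shCREPT libraries against 240.53 to 270.34 in shControl libraries. The complement factor CFB had 39.98 to 42.51 in shCREPT libraries against 210.39 to 217.84 in shControl libraries.

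**Figure D5:**
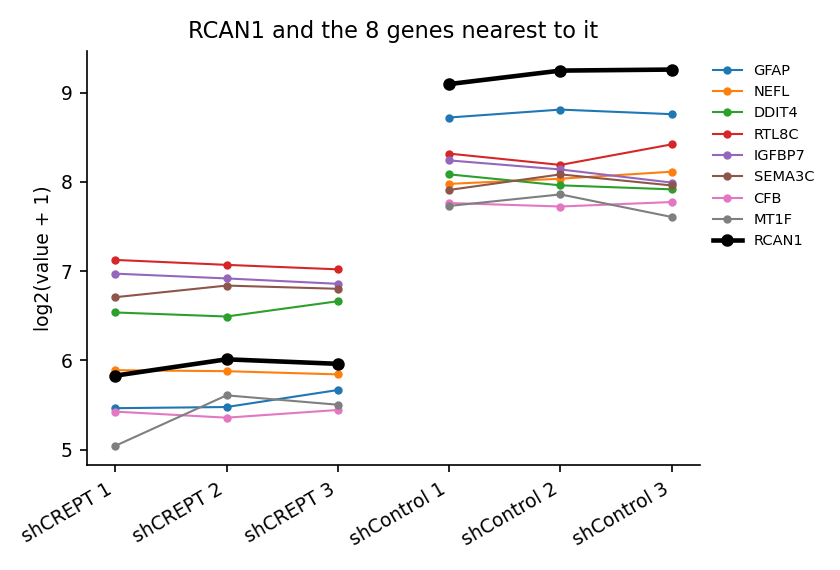
RCAN1 (black) and the 8 genes nearest to it by Euclidean distance, as log2(value + 1) in each library; lines only join the libraries of a group, which have no order. RCAN1 is the highest of the 9 in every shControl library and lies among them in the shCREPT libraries.

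On chromosome 21, 20 of the listed genes have a row, 10 marked higher and 10 marked lower in shCREPT by the authors, where 40.3% of all listed genes are marked higher and 59.7% lower. Within 1 Mb of RCAN1 there are 16 other protein-coding genes, and KCNE1 alone has a row. KCNE1, a potassium channel subunit, lies 866 bases beyond the annotated end of RCAN1, on the same strand, at chr21:34446688-34512275. It had 0.09, 0.17 and 0.19 in shCREPT libraries, against 0.5, 0.93 and 0.81 in shControl libraries, and was too low to be tested. The groups did not overlap (93.3% of all listed genes did not), and the authors' deposited table gives KCNE1 a log2 fold change of −2.14. Both genes were lower in shCREPT, with KCNE1 at a far lower level. Whether its reads arise from transcription that runs on from RCAN1 was not tested. On the other side the nearest listed gene is CHAF1B, a chromatin assembly factor 1770235 bases away, which rose, with 12.04 to 13.28 in shCREPT libraries against 5.78 to 6.33 in shControl libraries (limma adjusted p = 4.16e-05).

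Of the 19 listed genes on this chromosome other than RCAN1, 13 passed the filter. Limma called all 13, 9 higher and 4 lower in shCREPT. Of all tested genes 97.9% were called, 40.6% higher and 57.3% lower. Of these 13, 7 passed only with the libraries of the group where they are high (TRPM2, TRPM2-AS, TIAM1-AS1, LINC01684, S100B, SNX18P12 and ENSG00000270071), so their calls are no support. The other 6 were called 5 higher and 1 lower. TRPM2, a calcium-permeable channel, had 3.47, 3.42 and 2.69 in shCREPT libraries, against 0.1, 0.04 and 0.09 in shControl libraries. Its antisense gene TRPM2-AS had 1.12, 3.1 and 1.08 in shCREPT libraries and was listed at 0 in each shControl library. The labels do not say that the counting used strand, so reads of these overlapping genes may not have been told apart. MX2, SLC19A1, TIAM1-AS1, LINC01684 and the unnamed ENSG00000277067 and ENSG00000280441 were also called higher. IFNAR2, a subunit of the interferon receptor, had 5.05 to 5.91 in shCREPT libraries against 10.41 to 12.08 in shControl libraries and fell; S100B, SNX18P12 and ENSG00000270071 were called lower. The untested ADAMTS5, ITGB2, ENSG00000276289 and ENSG00000279851 are marked lower and ENSG00000229425 higher by the authors.

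The listed values summed to 31893.69 to 33330.8 per library, over listed genes alone, and the read depth is unknown. RPRD1B has no row, so the knockdown could not be checked in this table. Of 12 glioma and astrocyte markers 5 have a row, GFAP, FABP7, SLC1A3, S100B and CHI3L1. Limma called each lower, where 57.3% of all tested genes were called lower. S100B and CHI3L1 passed the filter only with the shControl libraries, where they are high, so their calls are no support. VIM, NES, SOX2, SOX9, CD44, AQP4 and ALDH1L1 have no row. The summed level of the 5 with a row was 98.19 to 116.32 in shCREPT libraries, against 655.24 to 672.58 in shControl libraries. Most of the shControl sum was GFAP (mean 434), and every listed gene was selected for a group difference. Of 10 endothelial markers CDH5 and KDR have a row and fell, with a summed level of 11.64 to 13.66 in shCREPT libraries against 43.28 to 45.26 in shControl libraries. The single fibroblast or mural row of 8 is COL1A2, at 431.57 to 492.37 in shCREPT libraries against 1084.21 to 1099.05 in shControl libraries, and none of 10 microglia, macrophage and monocyte markers has a row. No marker with a row was at 0 in all shCREPT libraries. The part of these shifts in the RCAN1 difference was not tested.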

How the data were processed

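The 6 libraries (3 per group) were made from total RNA with NEBNext Ultra reagents, per the labels' protocols. HISAT2, HTSeq and GRCh38 are named in the submitters' processing notes without versions or roles. Per the file headers, the deposited signal is a normalized expression value per gene and library; how it was normalized is not stated there, and its depth is unknown. The authors' fold change (a ratio), its log2 value and their p-value and adjusted p-value are also deposited. Every one of the 1630 listed genes is marked significant by the authors.

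Groups were compared on log2(value + 1), which understates changes of low genes, with limma 3.58.1 in R 4.3.3 over genes that reached a value of 1 in 3 or more libraries (1184 tested, 446 left out), Benjamini-Hochberg adjustment and a threshold of 0.05. Nothing says that the libraries are separate cultures, so p-values cover a spread that may be technical; an exact permutation test of 3 against 3 cannot go below a two-sided p of 0.1. RCAN1 and the lists were chosen with earlier results of these data known. Named genes are RCAN1, all pathway list members with a row, the 8 most like it by each of 2 measures, its 3 neighbours per side in 2 orders, and the listed genes of chromosome 21; some of these are not reported here. Positions are from GENCODE release 29 (1549 of 1630 identifiers matched). The limma step was tested on simulated data. Python 3.11.15, numpy 2.4.6, pandas 2.3.3, scipy 1.17.1 and matplotlib 3.10.9 were used. Alternatives were other pseudocounts (0.1 and 5), filters, scalings and limma options, a replicate block and leaving out each library.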

Additional observations from a re-analysis of the deposited data

How the results depend on the processing

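RCAN1 stayed lower in shCREPT under every alternative run. Its log2 difference of −3.27 moved to −2.40 under median-of-ratios rescaling, and was −3.29 and −3.19 with pseudocounts of 0.1 and 5, −3.20 under quantile normalization and −3.21 to −3.32 with 1 library left out. On the log2(value + 1) scale its rank by change was 5 of 1184, and 5 of 419 with a shControl mean of at least 10. That rank moved to 35 of 1178 by the log2 ratio of group means, which gives low genes full weight. Its rank by shControl level moved to 25 when values were divided by exon length, which scales a second time if they already are per length, an alternative chosen after seeing the data. A minimum of 10 in 3 libraries left fewer genes to test and called 485 genes, 10 of them pathway list members, against 1159 and 19. Leaving out 1 library gave 1137 to 1152 calls and 19 list members each time. Median-of-ratios rescaling ended the calls of PPP3CA, PTGS2 and KDR. Its factors rest on genes all selected as changed, so it does not decide whether these genes fell. The cause was not tested. Every other list member called in the main run kept its direction and its call under each alternative that tested it. With no filter on low values 22 list members were tested and 21 called, 12 higher and 9 lower.

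Same-numbered libraries did not deviate together over the tested genes (r = −0.109, 0.018 and −0.179), so the numbers were not taken to pair them. With the replicate number as a block RCAN1 kept its log2 difference of −3.27, with an SE of 0.018 in place of 0.076, and 1156 genes and 19 list members were called. Depth is unknown, so no counting error can be given.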
